A study of Mus musculus with 8 samples.

Results

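Axon guidance genes encode the secreted and membrane-bound cues that steer growing axons and migrating neurons, and the receptors that read them. The group examined here holds the semaphorins and their receptors (neuropilins and plexins), the Slits and Robos, the netrins, netrin-G proteins and netrin receptors, and the ephrins and Eph receptors. Members were chosen by gene symbol and by a mean raw count of at least 10 over all samples. Of the 16397 genes in the table, 70 carried such a symbol and 67 reached the minimum. Nearest to it were Epha10 below, with a mean count of 9.6, and Epha8 above, with 53.1, so that no member lay close to the minimum. Epha1 (mean count 7.6) and Ntn5 (2.1) also fell below, the latter with 16 reads in all IUGR samples together (11 of them in T1-3) and 1 read in all sham samples. The 67 members fall into 12 families.

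As background, semaphorins of class 3 are secreted and mostly signal through a neuropilin that binds the ligand and a plexin that transmits the signal, whereas many other semaphorins bind plexins directly. Slits are secreted repellents that bind Robo1 and Robo2. Netrin-1 attracts axons through Dcc and repels them through Unc5 receptors. Ephrins are anchored in the membrane of one cell and bind Eph receptors on another, so that signals can pass both ways. In the developing hippocampus these systems guide entorhinal and commissural axons and take part in neuronal migration.

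The study compared offspring with intrauterine growth restriction (IUGR) with sham offspring. Wild-type C57Bl/6J dams received an osmotic pump at E12.5 that delivered the thromboxane A2 analog U-46619, which raises maternal blood pressure (IUGR), or vehicle alone (sham). Hippocampi were dissected at E15.5 from 4 IUGR samples (T1-1, T1-3, T1-4, T1-5) and 4 sham samples (S1-4, S1-6, S3-1, S3-4), and total RNA without ribosomal RNA was sequenced. The methods state that both sexes were included. Neither the labels nor the methods say what the prefixes stand for or whether samples of a group came from separate litters, so p values measure the spread between these samples, which share 1 prefix in the IUGR group.

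The IUGR libraries held 12919546 to 16672463 counts on genes, and the sham libraries 11212632 to 15405748. Levels are given as CPM, counts per 1000000 counts after TMM scaling. Some marker lists of other cell types moved with the groups, and others did not. All 14 general neuronal markers were higher in IUGR, with list scores (mean log2 CPM) of 7.25 to 7.79 against 6.73 to 7.16. All 13 tested choroid plexus markers were lower, with scores of 0.31 to 3.83 against 5.47 to 6.03, and all 12 cortical hem markers were lower, with scores of 1.505 to 3.28 against 3.83 to 4.78. Meningeal fibroblast markers had a score of 6.75 in T1-3, above 2.30 to 4.93 in the other 3 IUGR and 3.63 to 4.79 in the sham samples. Markers of hippocampal and cortical neurons were present in every sample, and they summed to 1612 to 1906 CPM with IUGR, against 1300 to 2311 CPM with sham surgery. Of the 16 tested markers of this list, 11 were lower and 5 higher in IUGR, with a median log2 fold change of -0.10. Of the 8 intermediate progenitor markers, 6 were lower and 2 higher. The part that these lists have in the results below was not tested. In these bulk samples, fewer cells of a type and less RNA per cell cannot be told apart.

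No member passed the call threshold, which asks for both a 2-fold difference (a log2 fold change beyond 1 or -1) and an adjusted p of 0.05 or less, in edgeR's quasi-likelihood test. Of all 13707 genes tested, 1.46% did, and 1.55% had an adjusted p of at most 0.05 whatever their fold change. Of the 67 members, 66 were tested, since the identifier of Ntn3 had no match in the annotation. At an unadjusted p under 0.05, Efnb3, Nrp2, Ntng1, Plxnc1, Robo1 and Robo2 were higher in IUGR, which is 9.09% of the tested members against 4.46% of all genes. Slit3, Nrp1 and Plxnb2 were lower, which is 4.55% of the members against 6.62% of all genes. The counts of 6 and 3 became 10 and 1 with DESeq2 size factors, where 5.18% of all genes were higher and 6.18% lower. They were 13 and 1 without S1-6 (6.17% and 5.89% of all genes), 11 and 3 without T1-1 (5.92% and 5.44%), and 11 and 6 without both T1-1 and T1-4 (8.35% and 5.62%). The counts were smaller, 4 and 2, without T1-3 (3.28% and 7.03% of all genes), without S1-4 (3.76% and 5.22%) and against the S1 sham samples alone (2.47% and 5.22%), and 4 and 1 without S3-4 (2.74% and 5.60%). The 4 IUGR and the 4 sham values did not overlap for 4 members that were higher (Efnb3, Robo1, Robo2 and Robo4, or 6.06% against 2.08% of all genes) and for 0 that were lower (against 5.06% of all genes). DESeq2's Wald test called Efnb3 and Slit3, which is 3.03% of the members against 3.10% of all genes. Its adjusted p alone was at most 0.05 for Robo1 as well, which is 4.55% of the members against 4.26% of all genes.

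Across the 66 members, 39 had a positive log2 fold change and the median was 0.09. Over all genes tested, 44.5% had a positive value and the median was -0.02. The median of the members was 0.20 without S1-6, 0.15 without T1-5, 0.051 without T1-3, 0.032 without S3-1 and 0.025 against the S1 sham samples alone, where that of all genes was 0.012, -0.025, 0.022, -0.0061 and -0.0011. The median size of the log2 fold change, whatever its sign, was 0.25 for the members and 0.13 for all genes. The members also varied more within each group. Their median SD on the log2 scale was 0.35 with IUGR and 0.39 with sham surgery, against 0.26 in both groups for all genes. The families differed in direction. All 4 Robos (median log2 fold change 0.56) and all 6 netrin receptors (0.17) had positive values, as did 11 of the 13 semaphorins of classes 4 to 7 (0.12). Among the netrin receptors, however, Unc5b was at 0.0006, a value that shows no direction. All 5 EphB receptors (-0.17) and 5 of the 7 EphA receptors (-0.16) had negative values. These 5 counts were the same with DESeq2 size factors and with upper-quartile scaling. Single samples decided some of the signs, however. Without T1-3 the netrin receptor median was -0.066, and without T1-5 the EphB median was 0.0092. The medians of the Robos and of the class 4 to 7 semaphorins stayed positive with any 1 sample left out. That of these semaphorins nevertheless ranged from 0.060 (without T1-3) to 0.29 (without S1-6). Against the S1 sham samples alone the EphA median was 0.0029. Among the ligand families, 23 of 34 genes had positive values, against 16 of 32 in the receptor families. These are counts of direction over genes of the same 8 samples, not replicates.

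**Figure D1:**
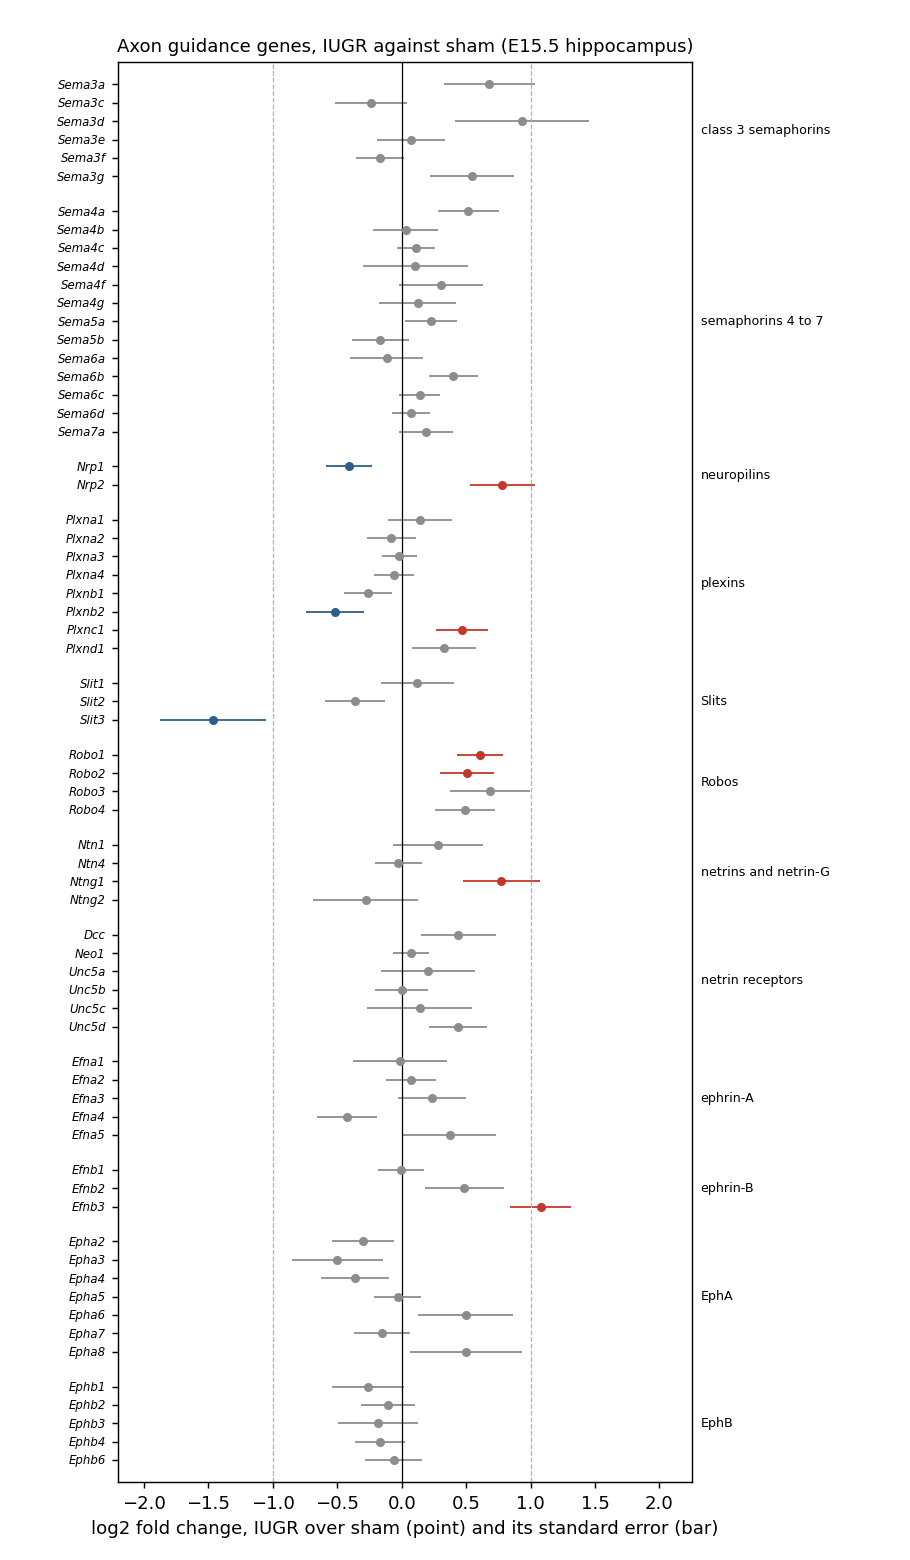
Log2 fold change of each tested axon guidance gene in IUGR over sham hippocampi (point) with its standard error (bar), grouped by family. Red marks genes higher and blue genes lower at an unadjusted p under 0.05, and dashed lines mark a log2 fold change of 1 in either direction. Efnb3 and Slit3 lie beyond the dashed lines, and all 4 Robos lie to the right of 0.

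Robo1 and Robo2 carry the repellent signal of Slits and are used by many cortical and hippocampal neurons, Robo3 is known for its part in midline crossing, and Robo4 is a receptor of endothelial cells. Robo1 (ENSMUSG00000022883, GRCm38 chr16:72308306-73046095) had 284, 317, 282 and 297 CPM in T1-1, T1-3, T1-4 and T1-5. The sham values of Robo1 were 165, 273, 146 and 190 CPM in S1-4, S1-6, S3-1 and S3-4. The groups did not overlap, and S1-6 was the sham sample nearest to the IUGR range. The IUGR values of Robo1 were close together, with an SD of 0.08 on the log2 scale against 0.39 with sham surgery. Robo1 had a log2 fold change of 0.61, with a standard error of 0.18 (adjusted p = 0.164). Without S1-6 it was 0.85, and the adjusted p of 0.0299 passed the threshold on p, whereas with any other sample left out edgeR's adjusted p was 0.217 to 0.390.

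Robo2 (chr16:73891839-74411825) had 167, 183, 182 and 282 CPM in T1-1, T1-3, T1-4 and T1-5, and 143, 166, 166 and 97.9 CPM in S1-4, S1-6, S3-1 and S3-4. The groups of Robo2 did not overlap, but the lowest IUGR and the highest sham value were almost equal, and T1-5 stood above the other 7 samples. For Robo2, the log2 fold change was 0.51 with a standard error of 0.21 (adjusted p = 0.382), and 0.31 (adjusted p = 0.743) without T1-5. Robo3 was at 8.70 ± 1.90 CPM (SD, n = 4) with IUGR and 5.43 ± 2.39 CPM (SD, n = 4) with sham surgery, and its groups overlapped. Its log2 fold change was 0.68 with a standard error of 0.31 (adjusted p = 0.462), and 1.06 (adjusted p = 0.116) without S1-6. Robo4 had 7.79, 10.1, 6.57 and 6.24 CPM in T1-1, T1-3, T1-4 and T1-5, and 6.10, 6.15, 4.86 and 4.78 CPM in S1-4, S1-6, S3-1 and S3-4. Its groups did not overlap, by a margin of less than 0.1 CPM, and its log2 fold change was 0.49 with a standard error of 0.23 (adjusted p = 0.478). Of the 11 tested endothelial markers, 7 were higher, with list scores of 3.92 to 4.94 with IUGR and 4.39 to 5.02 with sham surgery, whose part in the Robo4 values was not tested. Within the Robo family, the share of each gene overlapped between the groups, with Robo1 at 57.7% ± 5.08 (SD, n = 4) of Robo reads with IUGR and 55.4% ± 8.41 with sham surgery. Robo3 and Robo4 lie tail to tail on chromosome 9, with 0.553 kb between their ends. The sources do not give the strand setting of the counting.

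Because all 4 Robos had positive values, the sequence before their annotated starts is shown. The runs come from the RefSeq promoter table (GRCm38.p6), read 5′ to 3′ on the strand of the gene, and CG dinucleotides are in capitals. Each covers up to 250 bases before the RefSeq start nearest to the gene's annotated start and stops where an exon of GENCODE M21 begins. The runs lie at chr16:72662899-72663148 on the plus strand (Robo1), chr16:74411826-74412075 on the minus strand (Robo2), chr9:37433247-37433425 on the minus strand (Robo3) and chr9:37401722-37401896 on the plus strand (Robo4). The Robo1 run lies within the annotated gene, 355 kb from its outermost start. Robo2 has 3 listed starts, of which the outermost is shown.
Robo1: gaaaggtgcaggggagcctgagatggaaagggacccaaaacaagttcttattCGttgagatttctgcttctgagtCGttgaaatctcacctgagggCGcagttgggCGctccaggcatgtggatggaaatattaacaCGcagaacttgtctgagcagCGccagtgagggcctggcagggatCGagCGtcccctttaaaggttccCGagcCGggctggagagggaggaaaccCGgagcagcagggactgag
Robo2: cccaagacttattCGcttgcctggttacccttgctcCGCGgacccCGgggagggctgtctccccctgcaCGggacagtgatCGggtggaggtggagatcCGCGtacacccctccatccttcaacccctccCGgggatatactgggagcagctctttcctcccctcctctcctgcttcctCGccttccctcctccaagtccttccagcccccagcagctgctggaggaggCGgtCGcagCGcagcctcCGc
Robo3: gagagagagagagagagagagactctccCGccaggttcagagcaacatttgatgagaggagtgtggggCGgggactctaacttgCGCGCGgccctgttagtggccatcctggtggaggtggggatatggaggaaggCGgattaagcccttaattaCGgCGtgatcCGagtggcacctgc
Robo4: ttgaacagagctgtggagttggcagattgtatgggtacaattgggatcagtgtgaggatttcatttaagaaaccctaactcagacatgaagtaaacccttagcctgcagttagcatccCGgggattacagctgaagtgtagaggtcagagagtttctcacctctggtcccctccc

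The full windows of 250 bases held 11 CG for Robo1, 14 for Robo2, 12 for Robo3 and 2 for Robo4. Among the 10708 tested genes with a promoter entry, the median was 16, and 32.98%, 44.9%, 36.5% and 4.89% of genes had no more CG than Robo1, Robo2, Robo3 and Robo4. The motif searched was CG, which reads the same on both strands. Robo4, the endothelial member, thus had the fewest CG of the 4. The genes of that set were counted at their first listed start, which for Robo2 is another start than the one shown and holds 8 CG. Counted so, over the 57 members with an entry, the median was 17 CG, and 77.2% had at least 10 against 74.1% of all these genes. No call about a factor follows from these letters.

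Slits are the ligands of Robo1 and Robo2, and the 3 Slits did not share a direction. Slit3 (ENSMUSG00000056427, chr11:35121224-35708507) had 4.80, 8.54, 3.12 and 5.48 CPM in T1-1, T1-3, T1-4 and T1-5. Its sham values were 12.3, 23.5, 6.35 and 18.7 CPM in S1-4, S1-6, S3-1 and S3-4. All sham samples except S3-1 were above the IUGR range, and S3-1 lay below T1-3, so the groups overlapped. Slit3 had the largest negative log2 fold change of the members, -1.46 with a standard error of 0.41, or 2.76-fold lower (adjusted p = 0.132). DESeq2's Wald test gave it an adjusted p of 0.0176, within a range of 0.0176 to 0.479 over the alternatives. The gene is low, with raw counts of 37 to 272 per sample. Choroid plexus and cortical hem markers were lower in the same IUGR samples, and their part in the Slit3 values was not tested. Slit1 was at 91.3 ± 28.7 CPM (SD, n = 4) with IUGR and 83.9 ± 28.2 CPM with sham surgery, with a log2 fold change of 0.12 and a standard error of 0.28, which was -0.054 without S3-1 and 0.37 without S1-6. Slit2 was at 114 ± 20.2 CPM (SD, n = 4) with IUGR and 147 ± 49.3 CPM with sham surgery, with a log2 fold change of -0.36 and a standard error of 0.23 (adjusted p = 0.750). Without S3-4 the Slit2 value was -0.14 (adjusted p = 1.00), and without S3-1 it was -0.53 (adjusted p = 0.306). Both overlapped between the groups.

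**Figure D2:**
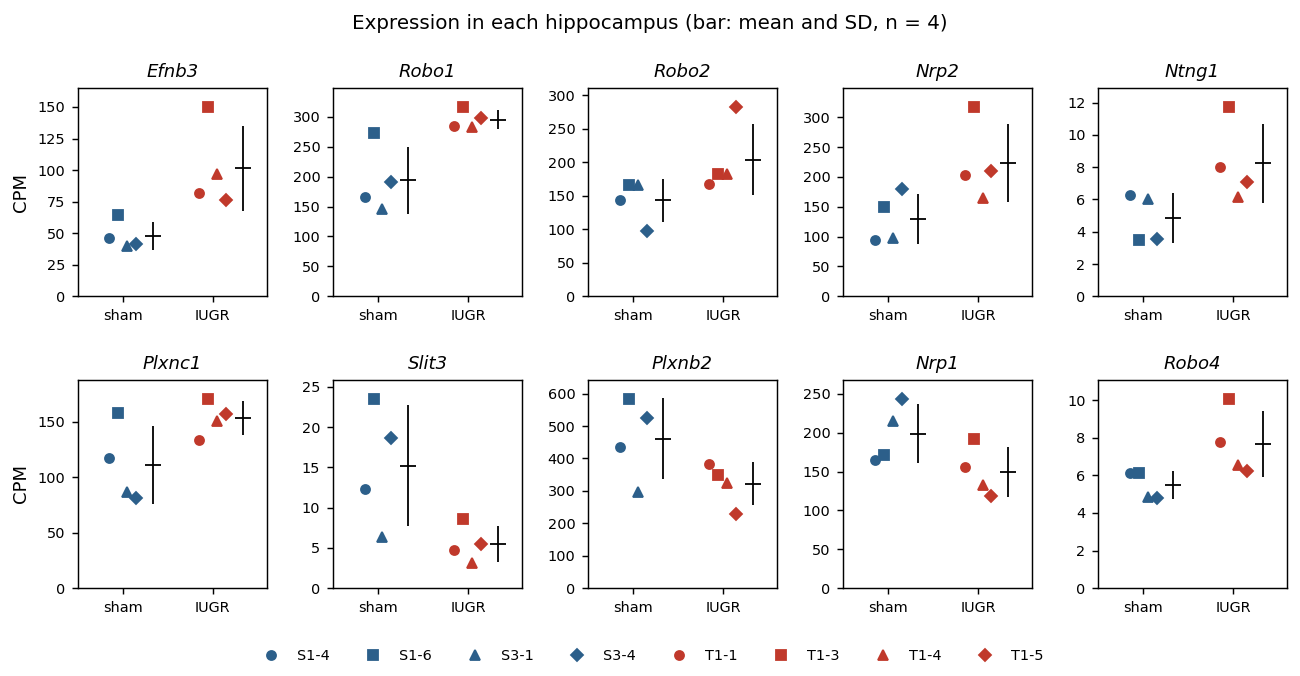
CPM of 10 axon guidance genes in each sham (blue) and IUGR (red) hippocampus, with the mean and SD of each group of 4 as a black bar. The 9 genes with an unadjusted p under 0.05 and Robo4 are drawn, each on its own axis from 0. The 4 IUGR points lie above the 4 sham points for Efnb3, Robo1, Robo2 and Robo4, whereas the points overlap for the other 6 genes.

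The neuropilins are the ligand-binding receptors of class 3 semaphorins, with Nrp1 best known as the receptor of Sema3a and Nrp2 as that of Sema3f, and their log2 fold changes had opposite signs, although neither passed the adjusted threshold and the CPM values of both overlapped between the groups. Nrp2 (ENSMUSG00000025969, chr1:62703285-62818695) had 204, 317, 164 and 209 CPM in T1-1, T1-3, T1-4 and T1-5, and 93.7, 150, 97.0 and 180 CPM in S1-4, S1-6, S3-1 and S3-4. Only S3-4 reached into the IUGR range, above T1-4. The log2 fold change of Nrp2 was 0.78 with a standard error of 0.25 (adjusted p = 0.211), and 0.59 (adjusted p = 0.412) without T1-3. Nrp1 (ENSMUSG00000025810, chr8:128358604-128503363) had 156, 191, 133 and 118 CPM in T1-1, T1-3, T1-4 and T1-5, and 165, 171, 215 and 244 CPM in S1-4, S1-6, S3-1 and S3-4. T1-3 was above S1-4 and S1-6, and the other 3 IUGR samples were below every sham sample. The log2 fold change of Nrp1 was -0.41 with a standard error of 0.18 (adjusted p = 0.437), and -0.17 against the S1 sham samples alone. A microRNA gene on the same strand, Mir1903, shares 80 exon bases with Nrp1 and had a mean count of 22.6.

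The ratio of the neuropilins separated the groups, a comparison chosen after the values were seen. Nrp2 reads per Nrp1 read were 1.31, 1.66, 1.24 and 1.77 in T1-1, T1-3, T1-4 and T1-5. They were 0.57, 0.88, 0.45 and 0.74 in S1-4, S1-6, S3-1 and S3-4. Nrp2 outnumbered Nrp1 in every IUGR sample and Nrp1 outnumbered Nrp2 in every sham sample. The means were 1.49 ± 0.26 (SD, n = 4) and 0.66 ± 0.19 (SD, n = 4), with a two-sided exact permutation p of 0.0286, the smallest that 4 against 4 samples can give. Because the genes were chosen for their opposite signs, this p is a description and no independent support. The ratio within a sample does not depend on library scaling, and it does not say which of the 2 genes differed.

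Class 3 semaphorins, the ligands of the neuropilins, gave 0 genes past an unadjusted p of 0.05. Sema3a, a repellent of hippocampal axons, had 29.0, 59.4, 33.2 and 82.9 CPM in T1-1, T1-3, T1-4 and T1-5 against 23.1, 30.2, 49.2 and 25.0 CPM in S1-4, S1-6, S3-1 and S3-4. T1-3 and T1-5 were above all sham samples and T1-1 and T1-4 within their range. Its log2 fold change was 0.68 with a standard error of 0.35 (adjusted p = 0.561), and 0.35 (adjusted p = 0.906) without T1-5. Sema3f was at 17.5 ± 2.26 CPM (SD, n = 4) with IUGR and 19.6 ± 4.05 CPM with sham surgery, with a log2 fold change of -0.17 and a standard error of 0.19, and 0.011 without S1-6. Sema3d had the largest positive value of the class, 0.94 with a standard error of 0.52 (adjusted p = 0.635), which was 0.20 without T1-3, where its level was 23.5 CPM against 4.27 to 8.67 CPM in the other IUGR samples. T1-3 is also the sample with the highest meningeal fibroblast score, whose part in the Sema3d value was not tested. Sema3c had the highest mean CPM of the class, 95.97 ± 25.3 (SD, n = 4) with IUGR and 113 ± 43.4 with sham surgery.

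Semaphorins of classes 4 to 7 are mostly membrane-bound. Their 13 genes ranged from a log2 fold change of -0.17 to 0.52, and 0 had an unadjusted p under 0.05. The largest positive value was that of Sema4a, 11.6 ± 2.47 CPM (SD, n = 4) with IUGR and 8.09 ± 1.92 CPM with sham surgery (adjusted p = 0.466), and the largest negative value that of Sema5b, 69.1 ± 19.5 CPM with IUGR and 77.5 ± 16.4 CPM with sham surgery (adjusted p = 1.00). Sema6d had the highest mean CPM of these classes, 88.8 ± 6.16 (SD, n = 4) with IUGR and 84.5 ± 16.8 with sham surgery.

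Plexins transmit the semaphorin signal, alone or with a neuropilin. Plxnb2, a receptor of class 4 semaphorins, had 384, 348, 324 and 229 CPM in T1-1, T1-3, T1-4 and T1-5 and 434, 584, 297 and 525 CPM in S1-4, S1-6, S3-1 and S3-4. Of the sham samples, only S3-1 fell within the IUGR range. Its log2 fold change was -0.52 with a standard error of 0.22 (adjusted p = 0.406), and -0.34 against the S3 sham samples alone. Plxnc1, the receptor of Sema7a, had 134, 171, 151 and 157 CPM in T1-1, T1-3, T1-4 and T1-5 and 117, 158, 86.7 and 81.7 CPM in S1-4, S1-6, S3-1 and S3-4. Only S1-6 reached into the IUGR range. Its log2 fold change was 0.47 with a standard error of 0.20 (adjusted p = 0.418). The size of this value depends on the sham samples used, since it was 0.15 against those of prefix S1, 0.89 against those of prefix S3, and 0.72 without S1-6. Plxna2, the plexin with the highest mean CPM, was at 495 ± 102 CPM (SD, n = 4) with IUGR and 524 ± 110 CPM with sham surgery, and the values of the other 5 plexins overlapped between the groups, with log2 fold changes from -0.26 to 0.33.

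Among the ephrins, the ligands of Eph receptors, the B class held the member with the smallest p. Efnb3 (ENSMUSG00000003934, chr11:69554092-69560205) is a transmembrane ephrin known for its part in midline guidance of axons. It had 81.9, 150, 97.2 and 76.7 CPM in T1-1, T1-3, T1-4 and T1-5, and 46.5, 64.2, 40.0 and 41.6 CPM in S1-4, S1-6, S3-1 and S3-4. All IUGR samples were above all sham samples, with T1-3 the highest. Efnb3 had a log2 fold change of 1.08 with a standard error of 0.24, or 2.11-fold higher, and the adjusted p of 0.0557 lay just above the threshold. DESeq2's Wald test gave an adjusted p of 0.000758 and limma-voom 0.0406, within a range of 0.000758 to 0.448 over the alternatives. Without T1-5 or without S1-6, edgeR's adjusted p was 0.0372 or 0.0459, so that the call for Efnb3 depends on the tool and on these samples. General neuronal markers were higher in the same samples, whereas 11 of 16 hippocampal and cortical neuron markers were lower. The part of either list in the Efnb3 values was not tested.

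The other B class ephrins did not separate the groups. Efnb2, the partner of EphB receptors in many tissues, was at 217 ± 52.7 CPM (SD, n = 4) with IUGR and 155 ± 69.1 CPM with sham surgery, with a log2 fold change of 0.49 and a standard error of 0.30 (adjusted p = 0.736). For Efnb2 that fold change was 0.79 without S1-6 (adjusted p = 0.292) and 0.28 without S3-1 (adjusted p = 0.881). Efnb1 was at 155 ± 38.5 CPM (SD, n = 4) and 155 ± 15.3 CPM, with a log2 fold change of -0.01. The 5 ephrin-A genes, which are anchored by a lipid tail, had log2 fold changes from -0.43 (Efna4, adjusted p = 0.614) to 0.37 (Efna5, adjusted p = 0.978), and all overlapped between the groups. Efna5 had 16.9, 26.4, 20.6 and 26.5 CPM in T1-1, T1-3, T1-4 and T1-5 and 15.2, 32.6, 8.00 and 14.3 CPM in S1-4, S1-6, S3-1 and S3-4. S1-6 was the highest of all 8 samples, and without it the log2 fold change of Efna5 was 0.89 (adjusted p = 0.177). Without S3-1, the lowest, it was 0.13 (adjusted p = 0.974), and it was -0.078 against the S1 and 1.04 against the S3 sham samples alone. Efna2 had the highest mean CPM of the A class, 28.4 ± 5.40 (SD, n = 4) with IUGR and 27.1 ± 5.76 with sham surgery.

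Eph receptors are the receptor tyrosine kinases that bind ephrins, and 0 of the 12 tested had an unadjusted p under 0.05. Epha4, which binds ephrins of both classes, had 1156, 420, 963 and 774 CPM in T1-1, T1-3, T1-4 and T1-5. Its sham values were 1203, 848, 1058 and 1155 CPM in S1-4, S1-6, S3-1 and S3-4. T1-3 was the lowest of the 8 samples, and the next lowest, T1-5, was at 774 CPM. Epha4 had a log2 fold change of -0.36 with a standard error of 0.27 (adjusted p = 0.844), and -0.11 without T1-3. Epha3 gave a similar picture, with 289, 86.8, 269 and 199 CPM in T1-1, T1-3, T1-4 and T1-5 against 207 to 418 CPM with sham surgery, and its log2 fold change moved from -0.50 to -0.20 without T1-3. Epha5 was at 203 ± 37.3 CPM (SD, n = 4) with IUGR and 208 ± 45.1 CPM with sham surgery. Epha8 had the largest positive value of the class, 0.50 with a standard error of 0.43, at raw counts of 25 to 96, and this was 0.23 without T1-5 and 0.80 without T1-1. In the B class, Ephb1 was at 67.0 ± 15.6 CPM (SD, n = 4) with IUGR and 80.3 ± 33.3 CPM with sham surgery, with the class's largest negative log2 fold change, -0.26 (adjusted p = 0.999). Its sign turned without S1-6, to 0.037 (adjusted p = 0.992), and without T1-4 the value was -0.44 (adjusted p = 0.733). Ephb2, with the highest mean CPM of the class, was at 173 ± 38.4 CPM with IUGR and 187 ± 46.7 CPM with sham surgery, and Ephb6 had the value nearest to 0, -0.06. EphA genes were more spread among IUGR than among sham samples. Their median SD on the log2 scale was 0.64 with IUGR and 0.32 with sham surgery, and 6 of 7 had the larger SD in IUGR, against 52.6% of all genes.

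Netrins and their receptors showed 1 gene with an unadjusted p under 0.05. Ntng1, a netrin-G protein that is tethered to the axon surface and binds a partner other than Dcc and Unc5, had 8.02, 11.7, 6.15 and 7.07 CPM in T1-1, T1-3, T1-4 and T1-5 and 6.29, 3.46, 6.04 and 3.56 CPM in S1-4, S1-6, S3-1 and S3-4. The groups overlapped only between T1-4 and S1-4. Its log2 fold change was 0.77 with a standard error of 0.30 (adjusted p = 0.323), and 0.59 (adjusted p = 0.535) without T1-3. Its raw counts were 40 to 191 per sample. Ntn1, the secreted attractant, had 76.5, 109, 182 and 102 CPM in T1-1, T1-3, T1-4 and T1-5 and 83.2, 172, 60.2 and 71.5 CPM in S1-4, S1-6, S3-1 and S3-4. T1-4 and S1-6 were high and the other 6 samples overlapped, so that the log2 fold change of 0.28 had a standard error of 0.35 (adjusted p = 1.00). It was 0.75 without S1-6 (adjusted p = 0.300) and -0.010 without T1-4 (adjusted p = 1.00). Ntng2 was at 11.6 ± 5.69 CPM (SD, n = 4) with IUGR and 14.1 ± 6.12 CPM with sham surgery, but shares 558 exon bases on the same strand with 6530402F18Rik, and its reads may be split. Ntn3, outside the main test, had a log2 fold change of -0.10 with a standard error of 0.18 when genes of every type were tested.

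The 6 netrin receptors had log2 fold changes from 0.00 (Unc5b) to 0.44 (Dcc), and 0 had an unadjusted p under 0.05. Dcc, the receptor of netrin-1 attraction, had 227, 231, 180 and 160 CPM in T1-1, T1-3, T1-4 and T1-5 and 93.6, 213, 86.8 and 195 CPM in S1-4, S1-6, S3-1 and S3-4. Sham values fell into a low pair (S1-4 and S3-1) and a high pair (S1-6 and S3-4), each with 1 sample of prefix S1 and 1 of S3. The log2 fold change of Dcc had a standard error of 0.29 (adjusted p = 0.768), and it was 0.70 without S1-6 (adjusted p = 0.374) and 0.26 without S3-1 (adjusted p = 0.902). Unc5d, a repulsive netrin receptor of cortical neurons, was at 60.1 ± 10.8 CPM (SD, n = 4) with IUGR and 44.4 ± 13.2 CPM with sham surgery, with a log2 fold change of 0.44 and a standard error of 0.23 (adjusted p = 0.574), and 0.28 (adjusted p = 0.871) without S1-4. Neo1, a Dcc relative that also binds RGM proteins, had the highest mean CPM of these receptors, 224 ± 28.1 (SD, n = 4) with IUGR and 213 ± 28.6 with sham surgery.

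The balance within families was examined as the percent of a family's reads that each gene took, for 66 genes. The groups did not overlap for 6 of the 66 shares, which are named for that reason. Those of Nrp2, Plxnc1 and Efnb3 were higher in IUGR, and those of Nrp1, Slit3 and Efnb1 were lower. No such count over all genes exists for shares, but in CPM 2.08% of all genes were higher and 5.06% were lower without overlap of the groups. Both directions enter the 6 shares, so both percentages belong beside them. The shares of a family add to the whole, so those of the neuropilins count once. In the ephrin-B family a higher share of one gene likewise lowers the others. The log2 fold change of Efnb1 itself was -0.01, so its lower share is no separate result. Nrp2 took 59.6% ± 4.26 (SD, n = 4) of neuropilin reads with IUGR and 39.1% ± 6.88 with sham surgery. Slit3 took 2.64% ± 1.04 of Slit reads with IUGR and 5.91% ± 1.48 with sham surgery, so that its values, which overlapped in CPM, did not overlap as a share. Plxnc1 took 9.55% ± 1.89 of plexin reads with IUGR and 6.23% ± 1.17 with sham surgery. Efnb3 took 21.5% ± 4.52 of ephrin-B reads with IUGR and 13.6% ± 1.94 with sham surgery, whereas Efnb1 took 32.7% ± 4.50 and 44.7% ± 7.81. The lowest Efnb3 share in IUGR (15.5%, T1-1) was close to the highest in sham (15.3%, S1-4), and the Efnb1 shares of T1-1 (36.9%) and S1-6 (37.0%) were close as well.

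**Figure D3:**
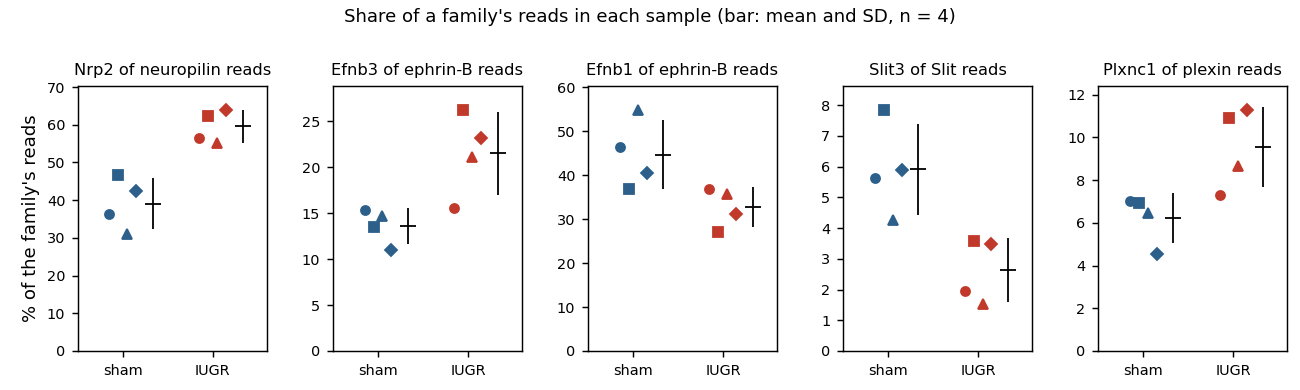
Percent of a family's reads taken by Nrp2, Efnb3, Efnb1, Slit3 and Plxnc1 in each sham (blue) and IUGR (red) hippocampus, with the mean and SD of each group of 4 as a black bar and an axis from 0. The groups do not overlap in any of the 5 panels, which were chosen for that. The gap is widest for Nrp2, with 55.3% as its lowest IUGR share and 46.7% as its highest sham share.

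Cytoplasmic and surface partners of these receptors (such as collapsin response mediators, Slit-Robo GTPase activators and adhesion molecules of the L1 type) formed a list of 46 tested genes, of which 25 had a positive value, with a median of 0.08, and 0 were called. At an unadjusted p under 0.05, 3 of the 46 were higher and 2 were lower, against 4.46% and 6.62% of all genes. Nrcam (log2 fold change 0.36), L1cam (0.53) and Chn2 (0.35) were higher, and Dpysl4 (-0.57) and Flrt3 (-0.63) were lower by this measure. L1cam and Nrcam are adhesion molecules of axons that act as co-receptors for Sema3a and Sema3f, Chn2 encodes a Rac-inactivating protein downstream of receptors, Dpysl4 is a collapsin response mediator, and Flrt3 is a co-receptor of Robo1 and a ligand of Unc5 receptors. Their adjusted p values were between 0.129 and 0.420.

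Levels between genes were compared as CPM per kb of annotated exon. Epha4 was the highest member, at 103 ± 38.9 CPM per kb (SD, n = 4) with IUGR and 132 ± 19.6 with sham surgery. Plxnb2 followed with 41.6 ± 8.59 and 59.6 ± 16.2, and Efnb1 with 44.8 ± 11.2 and 45.0 ± 4.44, which do not differ beyond their spread in IUGR. At the low end, Ntng1 was at 1.00 ± 0.297 CPM per kb (SD, n = 4) with IUGR and 0.587 ± 0.186 with sham surgery, and Sema3e at 0.727 ± 0.187 and 0.695 ± 0.161. Nrp1 was higher than Nrp2 per kb in sham (20.3 ± 3.83 against 10.99 ± 3.54), and in IUGR the order was turned (15.3 ± 3.26 against 18.9 ± 5.53), with a difference within the spread. Member genes are long, with a median span of 107 kb against 26.0 kb for all genes tested, and 34 of 66 (51.5%) span over 100 kb, against 16.1% of all genes.

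**Figure D4:**
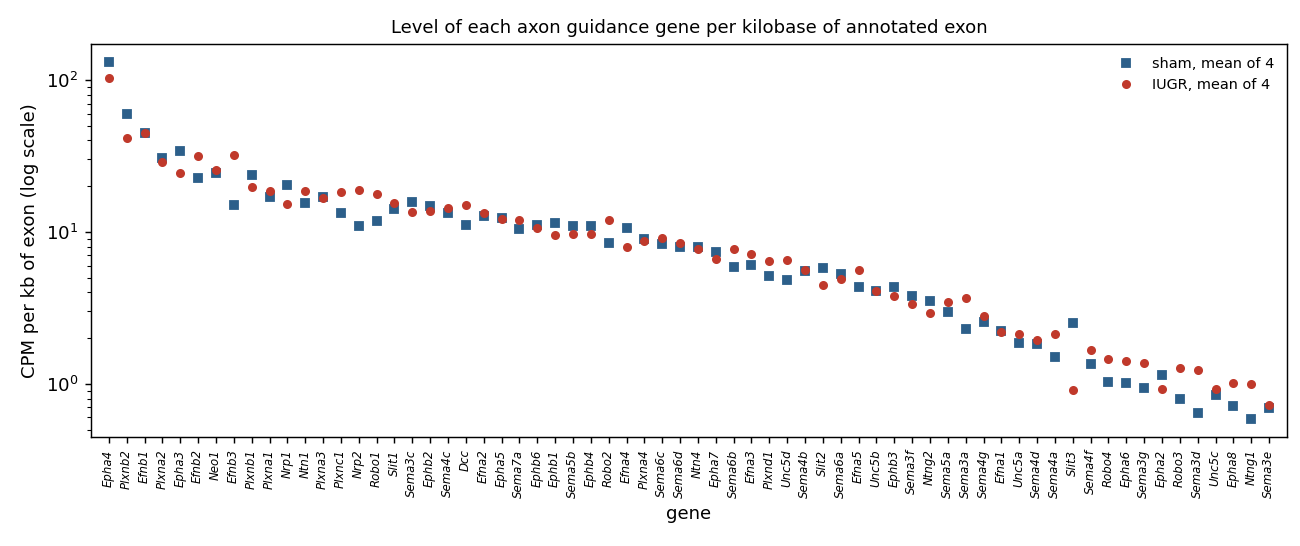
Mean level of each tested axon guidance gene in CPM per kb of annotated exon (log scale) with sham surgery (blue squares) and IUGR (red circles) hippocampi, ordered by the mean of both groups. Epha4 is at 132 with sham surgery and 103 in IUGR, far above the others, and the symbols of Slit3, Efnb3 and Ntng1 are visibly apart.

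Single samples stood out across the members. T1-3 was the highest of the 8 samples for 22 of 66 members (33.3%, against 17.2% of all genes), and S1-6 for 16 (24.2%, against 11.4%). T1-5 was the lowest for 16 members (24.2%, against 11.1%), and S1-4 and S3-1 for 14 each (21.2%, against 8.67% and 15.5%). The median SD on the log2 scale was 0.35 with IUGR and 0.39 with sham surgery for the members, against 0.26 in both groups for all genes. The sham samples of either prefix thus differed from each other in members such as Dcc, Efnb2 and Efna5, with S1-6 above S1-4 and S3-4 above S3-1 in all 3.

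**Figure D5:**
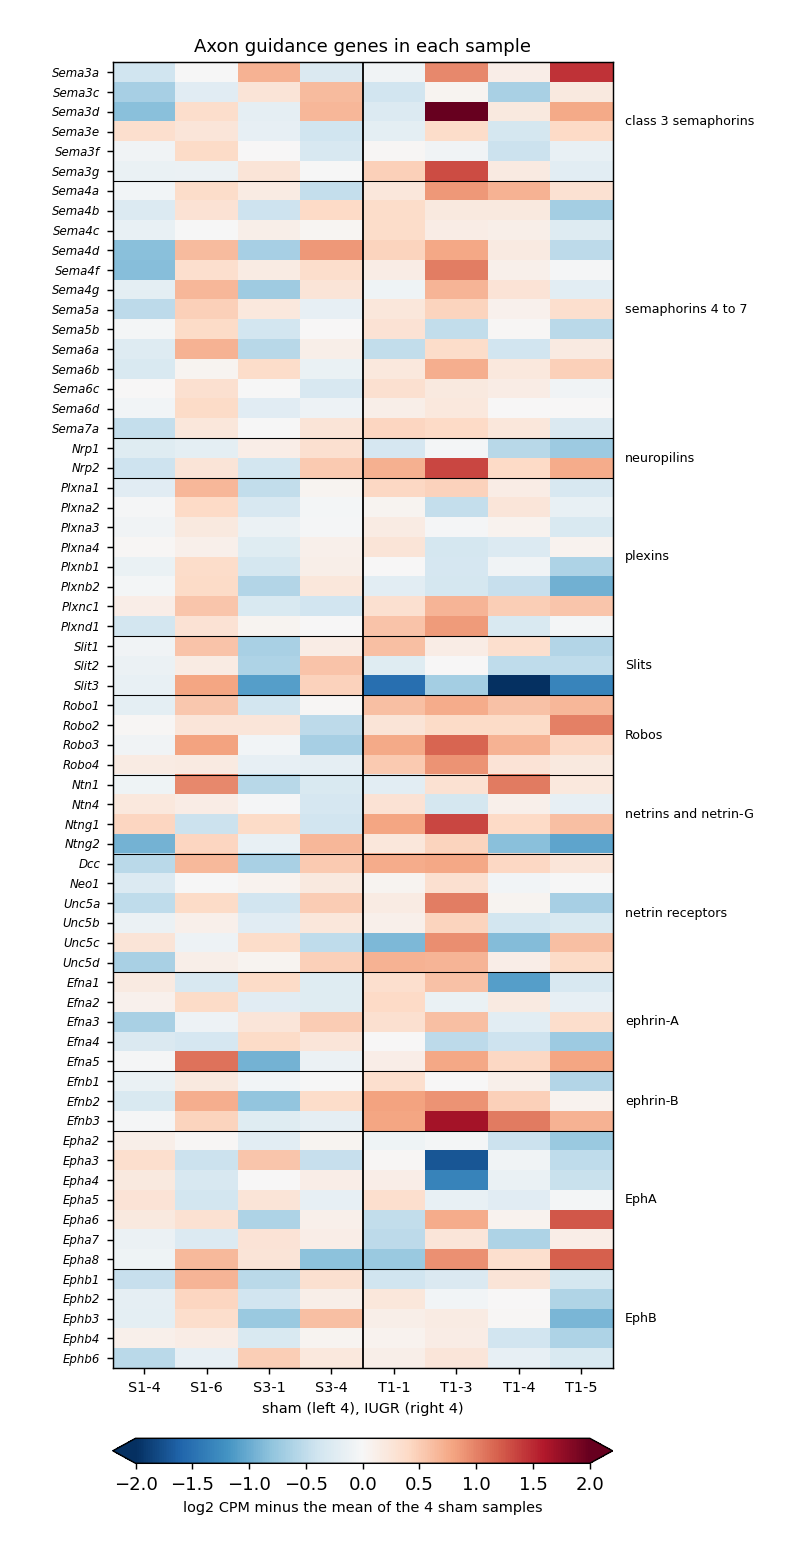
Log2 CPM of each tested axon guidance gene in each sample, minus the mean of the 4 sham samples (red higher, blue lower, with values past 2 in either direction drawn at the end of the scale), grouped by family. Columns are the sham samples S1-4, S1-6, S3-1 and S3-4 and the IUGR samples T1-1, T1-3, T1-4 and T1-5. Slit3 is blue in all 4 IUGR columns, Efnb3 and the Robos are red, and Epha3 and Epha4 are blue most of all in T1-3.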

How the data were processed

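Hippocampal RNA of 4 IUGR and 4 sham samples was sequenced as single reads from a stranded total RNA library. The authors aligned reads to GRCm38 (mm10), for which the submitters' processing notes name Novoalign 2.8, and deposited raw counts per gene with 1 column per sample. The counting program, annotation and strand setting are not given in the sources used here. All 8 columns were used, grouped by the treatment label, and the totals of each group are given above.

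Genes were matched by identifier to GENCODE M21 (273 of 16397 without a match), and those annotated as protein-coding were kept where the mean count reached 10 but not 50000. IUGR was compared with sham for these 13707 genes by edgeR 4.0.16 under R 4.3.3 (TMM scaling, quasi-likelihood test, Benjamini-Hochberg adjustment over all of them). Log2 CPM values use a prior count of 2. The alternatives were DESeq2 1.42.0, limma 3.58.1 (voom), other scalings and count minimums, all gene types, each sample left out, and sham samples of 1 prefix. The tests were run on simulated data first. With 4 samples per group an exact permutation test cannot give a p under 0.0286. The members, lists and tests were chosen with earlier results of these data known.

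Genes named are those with an unadjusted p under 0.05, the highest and the most positive and negative gene of each family, 16 guidance genes chosen for their role in hippocampal wiring, and partner genes with an unadjusted p under 0.05. In each of the 12 pairs of samples of 1 group, the chi-square of the counts, divided by its degrees of freedom, was 27.2 to 71.8, far above sampling noise, so no sample was merged with another.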

Additional observations from a re-analysis of the deposited data

Results flagged for a closer look

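The highest or lowest value of each group of 4 was compared with the other 3 for all 66 tested members, which is 132 groups. In 3 of them 1 IUGR sample stood apart from the others, where chance gives about 1 in 20, or 6.6. Ephb1 was at 90.3 CPM in T1-4 and at 57.3 to 61.7 CPM in the other IUGR samples. Robo2 was at 282 CPM in T1-5 and at 167 to 183 CPM in the other IUGR samples. Sema4f, a membrane-bound semaphorin named for this reason, was at 13.8 CPM in T1-3 and at 6.69 to 7.57 CPM in the others. The cause was not tested.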

How the results depend on the processing

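The 9 members with an unadjusted p under 0.05 were refitted under 18 alternatives. These reuse all or most of the samples in which the 9 were chosen, so a kept direction is no independent support. All 162 log2 fold changes kept their direction, while 41 lost the unadjusted p under 0.05. Efnb3 and Slit3 kept it in all 18, with log2 fold changes of 0.86 to 1.34 and -1.74 to -1.11. Of the other 7, Robo1 and Nrp2 kept it in 17 and Nrp1 in 5. Against edgeR's 0 calls, DESeq2's Wald test called 2 members and limma-voom 1, and leaving out 1 sample gave 0 to 1, while 1.46%, 3.10%, 2.39% and 0.299% to 2.17% of all genes were called. At the adjusted p alone, DESeq2's Wald test gave 3 members, or 4.55% against 4.26% of all genes. By that rule limma-voom gave Efnb3, and leaving out 1 sample gave at most Efnb3 and Robo1. The share over all genes by that rule was not computed for limma-voom or with a sample left out, so these members cannot be set against it. The count of members higher at an unadjusted p under 0.05 was 6, and it was 10 with DESeq2 size factors, 11 with DESeq2's Wald test, 10 with a minimum mean count of 50, 11 without T1-1 and T1-4 (the samples with the lowest choroid plexus scores, left out after seeing the data), and 4 to 13 with 1 sample left out, at most 13 without S1-6. The count of lower members was 3, and it was 1 with DESeq2 size factors, 1 with a minimum mean count of 50, 6 without T1-1 and T1-4, and 1 to 3 with 1 sample left out. Of all genes, 4.46% were higher and 6.62% lower at that p with edgeR, 5.18% and 6.18% with DESeq2 size factors, 5.59% and 6.29% with DESeq2's Wald test, 4.97% and 4.74% with the minimum of 50, 8.35% and 5.62% without T1-1 and T1-4, and 2.74% to 6.17% and 5.22% to 7.03% with 1 sample left out. The split of higher and lower members was therefore 6 to 3 with TMM and 10 to 1 with DESeq2 size factors. The median log2 fold change of netrins and netrin-G was 0.13, and it was -0.089 against the S1 sham samples, 0.50 against the S3 sham samples, and -0.038 to 0.369 with 1 sample left out. The EphA median was -0.16, and 0.0029 against the S1 sham samples. In the other families, medians moved by less than the spread between samples, but some changed sign. The netrin receptor median of 0.17 was -0.066 without T1-3, the EphB median of -0.17 was 0.0092 without T1-5, the ephrin-A median of 0.07 was -0.078 to -0.0093 in 4 alternatives, and the plexin median of -0.04 was 0.0075 to 0.11 in 4. Of 39 members refitted without each sample in turn, 14 changed sign at least once (Efna2, Efnb1, Epha5, Ephb1, Ephb2, Ephb6, Ntn1, Plxna2, Sema3c, Sema3f, Sema5b, Sema6d, Slit1 and Unc5b). The cause of these shifts was not tested. No paired analysis was possible because the numbers in the sample names have no stated meaning across the groups and would not pair all samples (T1-4 has its last number in common with both S1-4 and S3-4, and T1-3 and T1-5 with no sham sample). Depth limits the genes with under 100 reads in some samples, such as Slit3, Ntng1 and Robo3.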
